A study of Mus musculus with 8 samples.

Results

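Hnf4a, Hnf4g, Maf, Ppara, Esrra and Nr1h4 encode 6 transcription factors associated with the proximal tubule of the kidney. Their rows were taken by gene symbol from a matrix of single-cell counts that held all 6, and were followed across kidney cell classes and between genotypes. The cells came from a single pool of dissociated male embryonic kidneys, E17.5 by the sample labels but a later embryonic day in the study's text, in which a multiplexing tag marked the mouse of each cell. Mice 1 and 2 were ko (Trim28Δ/Δ) and mice 3 and 4 were wt (Trim28f/f), so both genotypes had floxed alleles of Trim28, a corepressor that helps to silence chromatin. Only the ko mice also carried the Six2-EGFP/cre transgene, so that an effect of the transgene and an effect of the deletion cannot be told apart. The Six2 promoter drives this Cre in nephron progenitors, which give rise to the epithelium from the podocyte to the distal tubule but not to ureteric bud, stroma, endothelium or blood. With 2 mice per genotype and 1 library, the p-values measure the spread between mice only.

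The proximal tubule reabsorbs most of the filtered glucose, amino acids, phosphate and bicarbonate, and it runs mainly on mitochondrial fatty acid oxidation. HNF4α and its paralogue HNF4γ are nuclear receptors that switch on transporter and metabolic genes as precursor cells mature into proximal tubule, and MAF is a large basic leucine zipper factor that marks the same lineage as well as tissue macrophages. PPARα is the fatty acid sensor that induces peroxisomal and mitochondrial β-oxidation, ERRα (Esrra) drives genes of the respiratory chain and the citric acid cycle, and FXR (Nr1h4) is the bile acid receptor.

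In the GENCODE annotation of GRCm38, Hnf4a (ENSMUSG00000017950) lies at chr2:163506808-163572910 on the plus strand and Hnf4g (ENSMUSG00000017688) at chr3:3508030-3658052, plus strand. Maf (ENSMUSG00000055435) lies at chr8:115682942-115707794 on the minus strand, and Ppara (ENSMUSG00000022383) at chr15:85734983-85802819 on the plus strand. Esrra (ENSMUSG00000024955) lies at chr19:6910977-6921813 and Nr1h4 (ENSMUSG00000047638) at chr10:89454234-89533585, both on the minus strand. RefSeq promoter windows of 300 bases (GRCm38.p6) were found for 4 of the 6 genes, with 2 windows for Hnf4a. They were searched on both strands for AGGTCA (nuclear receptor half-site), AAAGTCC (HNF4 core), TGCTGA (MAF half-site), AAGGTCA (ERR extended half-site, which contains AGGTCA) and GTTAAT (HNF1 half-site). The downstream window of Hnf4a, at chr2:163546905-163547204 within the gene, and the window of Nr1h4, at chr10:89506609-89506908, were the ones that held any of these letters, and they are printed 5′ to 3′ in the direction of transcription with the matches in capitals.
Hnf4a, downstream start: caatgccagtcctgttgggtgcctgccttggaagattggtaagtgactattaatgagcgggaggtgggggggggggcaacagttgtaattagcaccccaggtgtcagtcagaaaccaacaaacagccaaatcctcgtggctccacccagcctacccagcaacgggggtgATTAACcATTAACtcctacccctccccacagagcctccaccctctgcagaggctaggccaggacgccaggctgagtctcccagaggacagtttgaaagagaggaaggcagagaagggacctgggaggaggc
Nr1h4: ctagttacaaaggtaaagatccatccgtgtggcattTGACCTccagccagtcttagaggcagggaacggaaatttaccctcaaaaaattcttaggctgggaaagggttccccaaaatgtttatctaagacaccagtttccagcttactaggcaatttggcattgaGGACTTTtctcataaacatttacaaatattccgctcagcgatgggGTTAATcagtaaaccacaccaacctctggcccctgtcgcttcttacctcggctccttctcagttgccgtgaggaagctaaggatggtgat
The Hnf4a window held GTTAAT 2 times, both read on the opposite strand as ATTAAC. The Nr1h4 window held 1 AGGTCA and 1 AAAGTCC, both on the opposite strand, and 1 GTTAAT. Among 32851 promoter windows of the same length, GTTAAT was present in 7.10%, AAAGTCC in 4.21%, AGGTCA in 16.3%, TGCTGA in 19.5% and AAGGTCA in 4.72%. The upstream Hnf4a window and those of Ppara and Esrra held none of the 5 motifs. A match of so few letters is a description of the sequence and no evidence of binding.

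Of 19272 barcodes that passed the filters, 7348 carried the tag of 1 named mouse, with 1320, 1451, 2724 and 1853 cells in mice 1 to 4 and a median of 16519 to 17411 UMIs (counted transcripts) per cell. A further 4540 cells carried 1 of 4 tags that the deposited list does not assign to a mouse and were not used. Mouse 3 stood apart from the others: it supplied 226 of 281 cells of cluster 12 and 181 of 182 cells of cluster 14, but 15 of 384 cells of cluster 6 and 3 of 325 collecting duct (CD)-like cells. Cluster 14 had no name because no CD marker led it, but all 7 CD markers were at least 1.5-fold higher in it. The CD-like count thus leaves out these cells of mouse 3. Classes were named from marker genes that did not include the 6 factors, and the factors were also left out of clustering. The proximal tubule (PT)-like class was a single cluster of 612 cells (185, 168, 129 and 130 in mice 1 to 4), and the early proximal tubule (ErPT)-like class 1 of 569 cells (85, 110, 230 and 144). All 9 PT markers were present in PT-like cells, among them Fbp1 (gluconeogenesis) at 1268 CPM (UMI counts scaled to the total of the class in each mouse), Lrp2 (the endocytic receptor megalin) at 1247 CPM and Slc34a1 (phosphate transporter) at 1149 CPM. In ErPT-like cells Fbp1 was at 28.4 CPM, Lrp2 at 209 CPM and Slc34a1 at 71.4 CPM. The ErPT name rested on 3 of 7 ErPT markers. Its score, the mean log2 ratio of all 7 to the other cells, was 0.577, beside 0.455 for the S-shaped body. Clusters 12 and 6 scored higher for ErPT, at 1.14 and 0.955. Osr2, Cdh6 and Cthrc1 were higher in ErPT-like cells than in both of them, but Amn, Cubn, Pdzk1 and Fxyd2 were lower. Clusters 6 and 12 kept their numbers because no type's markers led them. Both had PT markers at levels between those of PT-like and ErPT-like cells, such as Lrp2 at 643 and 913 CPM.

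Trim28 was lower in ko mice in PT-like cells, with 21.8 and 23.6 CPM against 57.5 and 70.8 CPM in wt (log2 change of −1.50, SE 0.17, adjusted p = 0.0040 by edgeR). It was also lower in ErPT-like cells (log2 change of −2.12) and in nephron progenitor (NPC)-like cells (−2.60), but not called in ureteric bud (UB)-like cells (0.02, SE 0.22), which the Cre does not target. The position of the UMIs along Trim28 is not part of the counts, so these values do not check the deletion itself.

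The 6 factors did not share a single pattern of levels across the 20 classes with at least 10 cells in each of at least 3 mice. Each of them was at or near its highest in PT-like cells or in the unnamed clusters 6 and 12 next to them, but Maf was higher in Immune-like cells, and Esrra and Ppara reached nearby levels in distal segments. These levels are given as descriptions with no test, as means of the mice's CPM with the SD over mice.

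**Figure D1:**
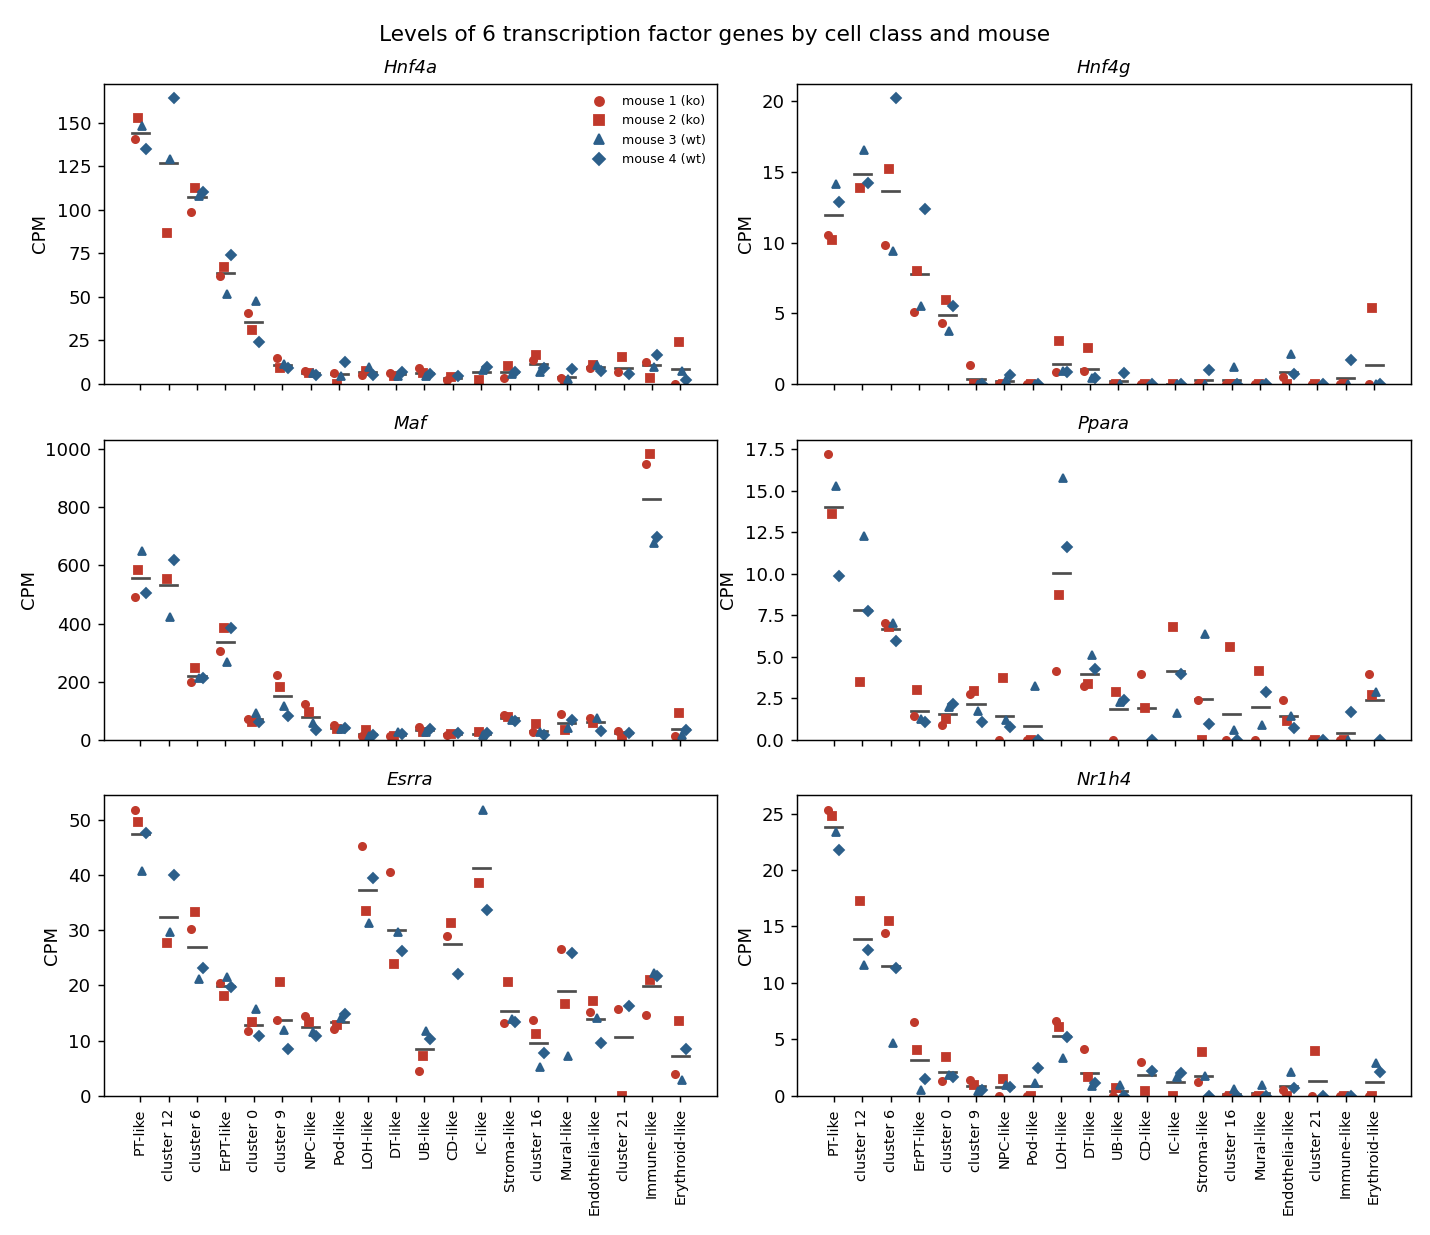
Level in CPM (vertical axes, linear, a scale per gene) of the 6 genes in 20 cell classes (horizontal axis), with a point for each mouse (red, ko; blue, wt) and a bar at the mean. Hnf4a falls from 144 CPM in PT-like cells to 63.7 CPM in ErPT-like cells, and the highest level of Maf is the 828 CPM of Immune-like cells.

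Hnf4a stood at 140, 153, 148 and 135 CPM in the PT-like cells of mice 1 to 4, a mean of 144 ± 7.97 CPM (SD, n = 4). The ko and wt mice overlapped. Next came cluster 12 (127 ± 38.9 CPM, n = 3 mice), cluster 6 (107 ± 6.07 CPM), ErPT-like cells (63.7 ± 9.34 CPM) and cluster 0 (35.6 ± 10.4 CPM), whose leading genes are of the cell cycle. The ranges of the mice overlapped between PT-like cells and cluster 12 and between clusters 12 and 6, but not between cluster 6, ErPT-like cells and cluster 0. All 15 other classes were at or below 11.6 CPM, including podocyte (Pod)-like cells at 5.67 CPM and NPC-like cells at 6.24 CPM, so that the PT-like level was 2.26 times that of ErPT-like cells and 12.4 times that of cluster 16, the first class after cluster 0. The estimated share of RNA free in solution was 9.38% of the Hnf4a CPM in cluster 16 and 0.54% in PT-like cells. It was 13.6% of the 9.48 CPM in Endothelia-like cells, which should lack Hnf4a, so the estimate does not account for most of the background.

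Hnf4g, with few UMIs per cell, was at 10.5, 10.2, 14.2 and 12.9 CPM in the PT-like cells of mice 1 to 4 (11.9 ± 1.92 CPM). Both wt mice were above both ko mice. Cluster 12 (14.9 ± 1.45 CPM, n = 3) and cluster 6 (13.7 ± 5.11 CPM) had higher means, ErPT-like cells were at 7.76 ± 3.34 CPM and cluster 0 at 4.87 ± 1.02 CPM, and each of these ranges overlapped with the next. No UMI of Hnf4g was counted in CD-like, intercalated cell (IC)-like, Mural-like and Pod-like cells or in cluster 21. Hnf4g and Hnf4a had a Pearson correlation of 0.95 over the 20 class means of log2(CPM + 1), the highest of the 15 pairs of the 6 genes.

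Nr1h4 was higher in PT-like cells than in any other class. PT-like cells held 25.4, 24.8, 23.4 and 21.8 CPM in mice 1 to 4 (23.8 ± 1.60 CPM), and every one of these values was above every mouse of cluster 12 (13.9 ± 3.001 CPM, n = 3), the class with the next mean. Cluster 6 followed at 11.5 ± 4.85 CPM, loop of Henle (LOH)-like cells at 5.29 ± 1.43 CPM and ErPT-like cells at 3.13 ± 2.72 CPM, with overlapping ranges. In Immune-like cells no UMI of Nr1h4 was counted. The PT-like level was 7.61 times the ErPT-like level, where the same ratio was 8.23 for Ppara, 2.38 for Esrra, 2.26 for Hnf4a, 1.66 for Maf and 1.54 for Hnf4g. The ErPT-like mean of Nr1h4 joined ko mice at 5.28 CPM and wt mice at 0.981 CPM, from 9, 8, 2 and 4 UMIs in mice 1 to 4, so this ratio rests on few counts. A difference of its genotype change between PT-like and ErPT-like cells was not called (−2.28, adjusted p = 0.24 by edgeR).

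Maf was highest in Immune-like cells, with 951, 985, 677 and 698 CPM in mice 1 to 4 (828 ± 163 CPM). Both ko mice were above both wt mice there, in a class of 27 to 73 cells per mouse. PT-like cells came second with 490, 585, 650 and 507 CPM (558 ± 74.1 CPM), and the ranges of these classes did not overlap. Cluster 12 was at 532 ± 101 CPM (n = 3), ErPT-like cells at 336 ± 58.5 CPM, cluster 6 at 218 ± 19.3 CPM, cluster 9, led by Wt1 and Pcp4 among others, at 151 ± 63.0 CPM and NPC-like cells at 77.1 ± 38.8 CPM. LOH-like and distal tubule (DT)-like cells were at the end of the order with 18.6 and 17.5 CPM. Maf and Hnf4a parted in cluster 6, where the PT-like level was 1.34 times the Hnf4a level but 2.56 times the Maf level.

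Ppara was at 17.2, 13.6, 15.3 and 9.90 CPM in PT-like cells (14.0 ± 3.12 CPM), and LOH-like cells followed with 4.11, 8.71, 15.8 and 11.6 CPM (10.1 ± 4.92 CPM). The ranges of both classes overlapped, and the order of the means came from the ko mice (15.4 against 6.41 CPM), since the wt mice had the higher mean in LOH-like cells (12.6 against 13.7 CPM). Cluster 12 was at 7.83 CPM, cluster 6 at 6.70 CPM and ErPT-like cells at 1.46, 3.002, 1.26 and 1.09 CPM in mice 1 to 4 (1.70 ± 0.88 CPM).

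Esrra was spread over many segments. It was at 51.9, 49.6, 40.7 and 47.7 CPM in PT-like cells (47.5 ± 4.81 CPM), at 41.4 ± 9.44 CPM in IC-like cells (n = 3), at 37.4 ± 6.25 CPM in LOH-like cells and at 30.1 ± 7.42 CPM in DT-like cells. From PT-like cells down to cluster 6, the seventh class of the order at 27.0 CPM, each range of mice overlapped with that of the next class. The level in PT-like cells was 2.38 times that in ErPT-like cells (19.9 CPM).

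The class with the highest mean moved with the tag assignment, the UMI minimum and the clustering resolution for Hnf4g, between PT-like cells and an unnamed cluster, and for Esrra, between PT-like, DT-like and IC-like cells. It stayed the same for the other 4 genes under 5 other settings of tag assignment, UMI minimum and clustering.

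For each factor, the 3 genes with the most similar levels over the 20 class means (Pearson r of log2(CPM + 1), among 12664 genes) were listed as a description; the class means share libraries and cells. Hnf4a was closest to Glyat (glycine conjugation, r = 0.97), D630011A20Rik and Ugt2b37 (glucuronidation), and Hnf4g to Slc39a5 (a zinc transporter, r = 0.97), Spink1 (a protease inhibitor) and Qprt (NAD synthesis). Nr1h4 was closest to Ggt1 (glutathione breakdown at the brush border, r = 0.94), Hoga1 and Hao2 (a peroxisomal oxidase), and Ppara to Mfsd4b1 (r = 0.90), Mdh1 and Anpep (brush border aminopeptidase N). Esrra was closest to the mitochondrial genes Cox7a1 (r = 0.93), Uqcr10 and Etfdh. Maf was closest to Gm15655 (r = 0.94), Cotl1 and Cfb. Gm15655 is annotated as antisense at chr8:115705078-115707233 inside the Maf gene, and since no source used here says whether the counting used strand, its counts and those of Maf are uncertain.

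The share of cells with at least 1 UMI was computed as the share expected after thinning each cell to 6800 UMIs. In PT-like cells Hnf4a was found in 61.3 ± 2.32% of cells (94.2% with all UMIs), Maf in 93.2 ± 1.63% (99.3%, against 84.6 ± 5.20% after thinning in Immune-like cells, where its level was higher) and Esrra in 27.5 ± 2.89% (68.5%). Nr1h4 was found in 15.3 ± 1.30% of cells (46.2% with all UMIs), Ppara in 9.46 ± 3.05% (30.3%) and Hnf4g in 8.23 ± 1.77% (26.2%). In Endothelia-like cells, which should lack Hnf4a, Hnf4g and Nr1h4, the shares after thinning were 6.01% for Hnf4a, 0.381% for Hnf4g, 0.756% for Ppara and 0.478% for Nr1h4, but 8.69% for Esrra and 26.6% for Maf. The median depth was 22200 to 27676 UMIs in PT-like cells and 12179 to 14812 UMIs in Endothelia-like cells. The SDs are over mice and include the counting error of each mouse's share. ErPT-like cells held Hnf4a in 32.8%, Maf in 61.4%, Esrra in 12.1%, Hnf4g in 4.90%, Nr1h4 in 2.04% and Ppara in 1.32% of cells. For Nr1h4 the ErPT-like share was 4.31 and 2.53% in ko mice, above the highest Endothelia-like value of 1.18%, and 0.382 and 0.943% in wt mice, within the Endothelia-like range. With all UMIs, a PT-like cell held UMIs of 3.67, 3.67, 3.64 and 3.61 of the 6 factors on average in mice 1 to 4, and an ErPT-like cell of 1.79, 1.85, 1.58 and 1.92.

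**Figure D2:**
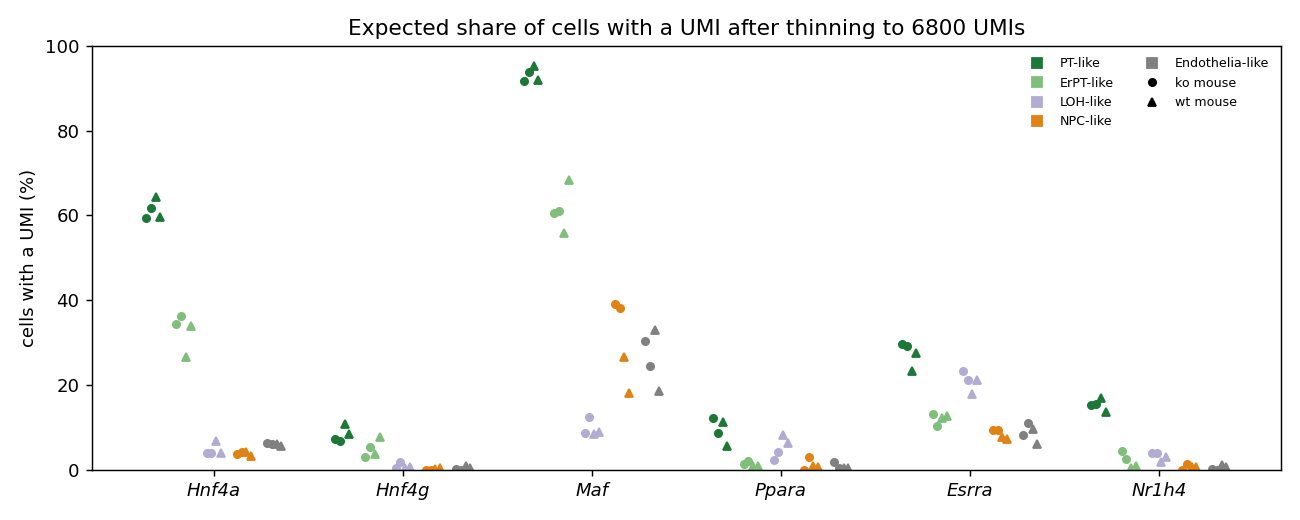
Share of cells with at least 1 UMI (percent, vertical axis) of each gene (horizontal axis) after thinning to 6800 UMIs, by class (colour) and mouse (circles, ko; triangles, wt). The 4 PT-like points of Hnf4a, Maf, Esrra and Nr1h4 lie above every point of the other 4 classes for that gene. In PT-like cells both ko mice lie above both wt mice for Esrra and below them for Hnf4g, and the genotypes overlap for Hnf4a, Maf and Nr1h4.

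The comparison of ko with wt mice addressed whether loss of Trim28 in nephron progenitors altered these factors. UMI counts were summed per mouse and class and tested over all genes in the 16 classes with at least 10 cells in every mouse. Of 96 pairs of gene and class, 48 passed the filter on low counts. edgeR called none of them (adjusted p under 0.05), and DESeq2 called 1, Maf in NPC-like cells. An unadjusted p under 0.05 was found for 4, Maf in NPC-like and DT-like cells and cluster 9 and Ppara in LOH-like cells. Of all genes, 9.64% in NPC-like, 6.16% in DT-like and 7.64% in LOH-like cells and 6.24% in cluster 9 had such a p. The 4 of 48 are thus near what all genes gave. The share of all genes called was 0.682% in PT-like, 0.557% in ErPT-like, 1.5% in NPC-like, 0.0731% in LOH-like, 0.233% in DT-like, 0.275% in Pod-like and 0.0284% in Immune-like cells. It was 0.196% in cluster 0, 0.223% in cluster 6 and 0.257% in cluster 9. In UB-like, Stroma-like, Mural-like, Endothelia-like and Erythroid-like cells and in cluster 16, 0% of genes were called, with 352, 423, 215, 569, 185 and 468 genes at an unadjusted p under 0.05.

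**Figure D3:**
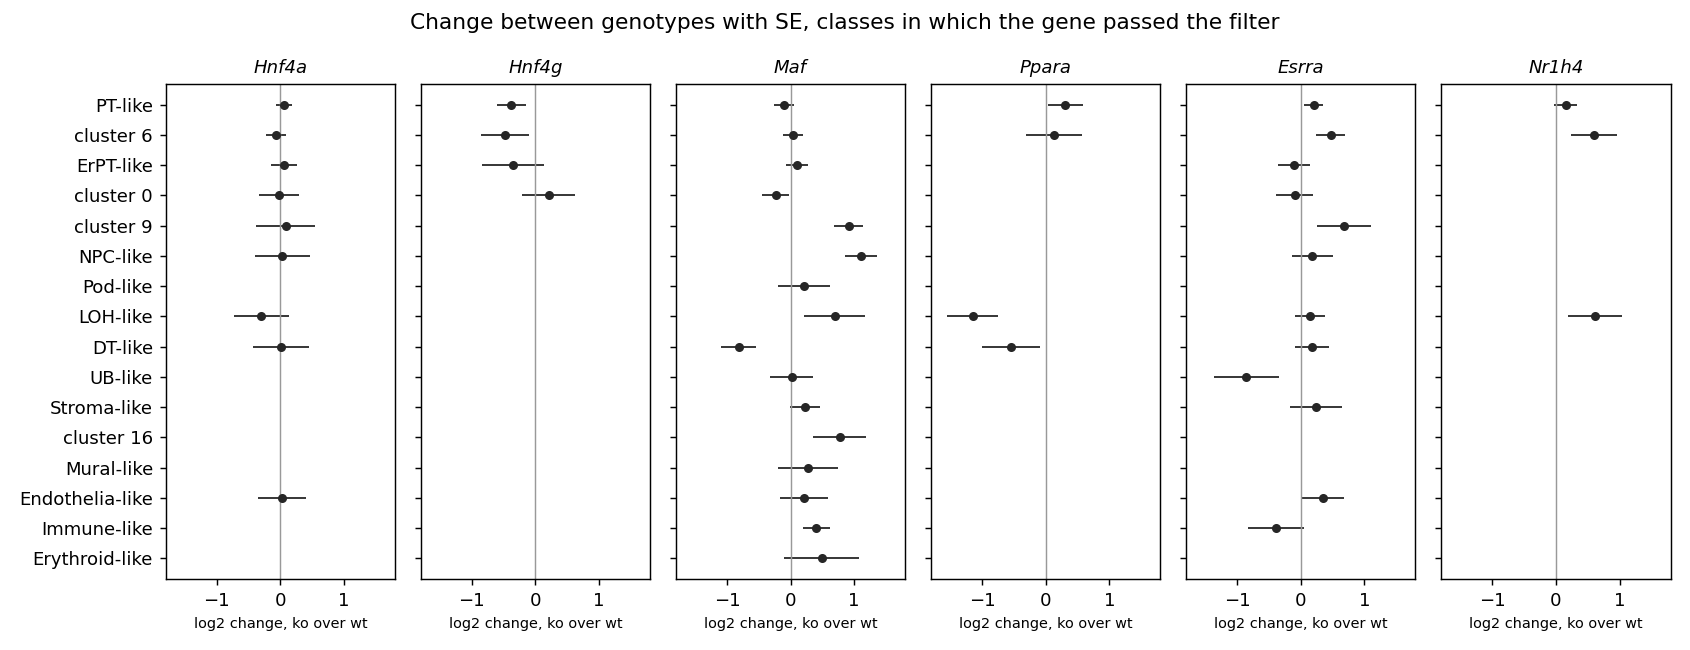
Log2 change of ko over wt (horizontal axes) with its SE (bars) for the 48 tests of 6 genes in 16 classes (vertical axis), with 2 mice per genotype. In PT-like cells all 6 changes lie between −0.38 and 0.31, and the changes furthest from 0 are those of Maf in NPC-like cells (1.11) and Ppara in LOH-like cells (−1.15).

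In PT-like cells all 6 factors passed the filter, and none was called between genotypes. Hnf4a differed by 0.05 on the log2 scale (SE 0.13, adjusted p = 0.92), Maf by −0.10 (SE 0.15, adjusted p = 0.86) and Nr1h4 by 0.16 (SE 0.18, adjusted p = 0.81). For Esrra the difference was 0.20 (SE 0.15, adjusted p = 0.69), for Ppara 0.31 (SE 0.27, adjusted p = 0.75) and for Hnf4g −0.38 (SE 0.23, adjusted p = 0.62). Hnf4g was lower in both ko mice than in either wt mouse, and Nr1h4 and Esrra were higher in both, but none of these differences passed the test. The median over all 11577 genes tested was −0.00. None of the 6 was called without any 1 of the 4 mice, and without mouse 3 Ppara was at 0.66 (adjusted p = 0.18) and Maf at 0.10. Markers of other cells also differed between genotypes in PT-like cells, in both directions. The 7 progenitor markers summed to 30.9 and 29.7 CPM in ko and 60.7 and 82.1 CPM in wt mice, the 7 renal vesicle markers to 55.5 and 70.1 CPM against 83.2 and 121 CPM, and the 7 podocyte markers to 22.0 and 22.4 CPM against 51.2 and 50.7 CPM, with none at 0. The 5 erythroid markers, 1 of them at 0, summed to 1745 and 679.9 CPM in ko and 2991 and 2884 CPM in wt mice, and the 7 immune markers to 53.5 and 40.7 CPM against 20.8 and 36.1 CPM. The 6 LOH markers summed to 362 and 315 CPM in ko and 288 and 295 CPM in wt mice, and the 9 PT markers to 10744 and 10219 CPM against 10181 and 10806 CPM. The part of these lists in the values of PT-like cells, those of the target lists included, was not tested. The shares of PT-like cells with a UMI after thinning differed between ko and wt by at most 4.01 percentage points (Esrra, 29.5% against 25.5%), with Hnf4a at 60.6% against 62.0% and Maf at 92.8% against 93.7%. With 2 mice against 2, the smallest p that the exact two-sided permutation test allows is 0.333, so that no difference in shares could pass.

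ErPT-like cells gave the same picture for the genes that could be tested. Hnf4a was at 62.0 and 67.0 CPM in ko and 51.8 and 74.0 CPM in wt mice (log2 change of 0.06, SE 0.21, adjusted p = 0.97), with both ko mice inside the wt range. Maf was at 307 and 385 CPM in ko and 267 and 385 CPM in wt mice (0.10, SE 0.17, adjusted p = 0.93). Esrra differed by −0.11 (SE 0.25) and Hnf4g by −0.35 (SE 0.49), and the sign turned for Hnf4a, Maf and Esrra under other ways of assigning or clustering cells and for Hnf4g without mouse 4. Without mouse 4, Maf was at 0.38 (adjusted p = 0.0038) in a fit that called 12.8% of all genes. With 1 mouse of a genotype left, here and in the other fits that leave out a mouse, the spread comes from the pair of the other genotype and the lone mouse is assumed to vary like it.

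Nr1h4 in ErPT-like cells did not pass the filter on low counts. It had 9 and 8 UMIs in the ko mice and 2 and 4 UMIs in the wt mice, or 6.57, 4.002, 0.50 and 1.46 CPM. Both ko mice were above both wt mice. With no filter the log2 change was 2.41 (SE 0.73, adjusted p = 0.049, with 1.85% of genes called). The change in PT-like cells minus that in ErPT-like cells was −2.28 (SE 0.65, adjusted p = 0.24 by edgeR with mouse as a block, where 0.329% of genes were called). It ranged from −3.11 to −1.56 without 1 mouse, and passed the threshold only without mouse 4 (−3.11), in a fit that called more of all genes. Ppara in these cells had 2, 6, 5 and 3 UMIs and was not tested.

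Maf in NPC-like cells had the lowest p of the 48 tests. The ko mice were at 122 and 95.2 CPM and the wt mice at 57.2 and 34.5 CPM, so the groups did not overlap, with a 2.16-fold higher level in ko (log2 change of 1.11, SE 0.25, adjusted p = 0.076 by edgeR). DESeq2 (1.11, adjusted p = 0.044, with 0.793% of genes called) and edgeR with no filter (1.06, adjusted p = 1.4e-04, with 2.54% called) called it. So did edgeR without mouse 3 (1.48) or without mouse 4 (0.79), in fits that called far more genes of any kind. Maf was not called without mouse 1 (0.93) or without mouse 2 (1.28), in fits that called far fewer genes of any kind. The share of NPC-like cells with a Maf UMI after thinning was 39.1 and 38.1% in ko and 26.6 and 18.2% in wt mice. Of the clusters that make up this class, cluster 7 held 32 of 46 and 38 of 69 cells of the ko mice, 133 of 218 cells of mouse 3 and 178 of 396 cells of mouse 4, and cluster 10 held the rest. In cluster 7 alone Maf was at 142 and 86.8 CPM in ko and 50.8 and 33.7 CPM in wt mice (1.32, SE 0.28, adjusted p = 0.038, with 1.63% of genes called), and in cluster 10 alone at 41.4 and 112 CPM against 71.7 and 35.5 CPM (0.57, SE 0.41, adjusted p = 0.92).

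**Figure D4:**
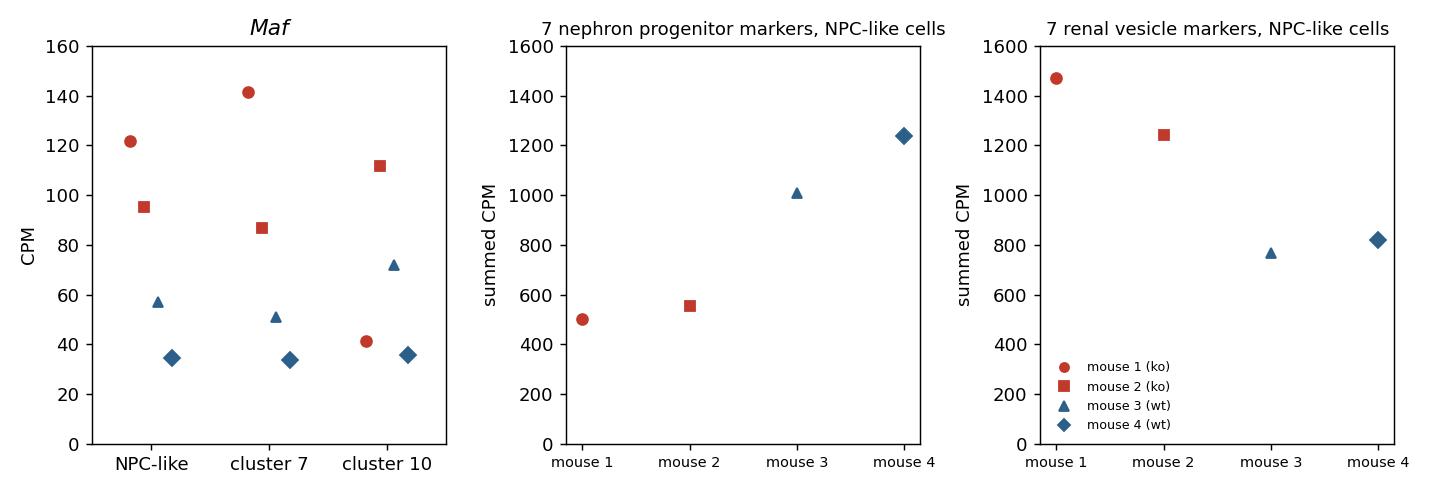
Maf level in CPM per mouse in NPC-like cells and in their clusters 7 and 10 (left), and the summed CPM of 7 nephron progenitor markers (middle) and of 7 renal vesicle markers (right) in NPC-like cells (red, ko; blue, wt). Both ko mice have the higher Maf and renal vesicle sums and the lower progenitor sums, and in cluster 10 the Maf values of ko and wt mice overlap.

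Markers of the stage of these cells moved with Maf. The 7 progenitor markers, such as Six2 and Cited1, summed to 502 and 555 CPM in ko and 1007 and 1238 CPM in wt NPC-like cells, and the 7 renal vesicle markers, such as Wnt4 and Lhx1, to 1470 and 1241 CPM in ko and 766 and 820 CPM in wt. The 7 ErPT markers summed to 507 and 513 CPM in ko and 411 and 315 CPM in wt, and the 9 PT markers to 271 and 237 CPM against 248 and 200 CPM. None of the markers of these 4 lists was at 0. The 7 immune markers summed to 12.5 and 15.6 CPM in ko and 19.0 and 23.7 CPM in wt. The part of these lists in the Maf result was not tested.

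In the pair of PT-like and NPC-like cells, the genotype change of Maf was tested for a difference. It was lower in PT-like cells by 1.22 on the log2 scale (−1.22, SE 0.20, adjusted p = 0.012 by edgeR), the 1 call among the 6 factors in a fit where 0.761% of genes were called. The call was lost without mouse 1 (−0.93) and without mouse 2 (−1.52), in fits that called far fewer genes of any kind. In cluster 9, Maf stood at 224 and 181 CPM in ko and 118 and 83.3 CPM in wt mice, which again did not overlap (0.91, SE 0.23, adjusted p = 0.26). The progenitor markers there summed to 135 and 219.9 CPM in ko and 332 and 307 CPM in wt mice, and the PT markers to 722 CPM in mouse 1 and 249.8 to 280.1 CPM in the others, and their part in the result was not tested. Maf was called in this cluster without mouse 3 (1.19, with 1.35% of genes called) and with no filter (0.86, with 0.957% called).

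Among distal segments, Ppara in LOH-like cells was at 4.11 and 8.71 CPM in ko and 15.8 and 11.6 CPM in wt mice, with no overlap (−1.15, SE 0.40, adjusted p = 0.57), and it passed the threshold without mouse 4 (−1.35), as did Maf in the same cells (0.96), in a fit with mouse 3 as the lone wt mouse that called 21.3% of all genes. The change of Ppara in PT-like cells minus that in LOH-like cells was 1.44 (SE 0.44, adjusted p = 0.32, with 0.144% of genes called), and it ranged from 0.82 to 2.17 without 1 mouse. Both Ppara (1.37) and Maf (−1.18) passed the threshold only without mouse 4, in a fit that called far more of all genes. Maf in DT-like cells was at 11.6 and 14.2 CPM in ko and 26.1 and 18.2 CPM in wt mice (−0.81, SE 0.28, adjusted p = 0.63), and passed the threshold without mouse 4 (−1.02, with 5.44% of genes called). Maf in Immune-like cells, outside the Cre lineage, differed by 0.40 (SE 0.21, adjusted p = 0.9997).

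For the gene lists that follow, the counts in PT-like cells stand beside 0.682% of all genes called and 11.4% (1322 of 11577) with an unadjusted p under 0.05, and a count near the latter share is what all genes gave.

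Several paralogues had their highest level outside the proximal tubule. Mafa was at 29.0 CPM in Pod-like cells, with no UMI in PT-like cells. Esrrg was highest in LOH-like cells (65.3 CPM, against 25.3 CPM in PT-like cells), Pparg in IC-like cells (74.2 CPM, with an SD of 89.4 over 3 mice) and Ppard in Mural-like cells (31.7 CPM). Of 9 paralogues, 5 were tested in PT-like cells and none was called between genotypes (median log2 change of −0.14, 2 with an unadjusted p under 0.05).

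Of 12 receptor partners and coregulators, 10 were tested in PT-like cells and none was called (median of −0.14, 1 with an unadjusted p under 0.05). Ncor1, a corepressor, was at −0.12. Ppargc1a, the coactivator of PPARα and ERRα, was at 98.3, 104, 97.4 and 80.4 CPM in mice 1 to 4 (0.19, SE 0.14).

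The targets of HNF4 gave the only calls among the lists in PT-like cells. Of 20 genes, 18 were tested, 2 rose in ko and none fell, where 0.682% of all genes were called, with 7 at an unadjusted p under 0.05 and a median of 0.11. Ttr, the thyroxine and retinol carrier transthyretin, was at 226 and 262 CPM in ko and 59.8 and 69.5 CPM in wt mice, and the groups did not overlap (1.92, SE 0.14, adjusted p = 1.8e-04). The call of Ttr was lost when each tag was normalised across all cells (1.87). Ttr was a leading gene of cluster 6, with 135 and 169 cells of the ko mice and 15 and 65 of the wt mice, and its part in the result was not tested. Other targets had no call, among them Fbp1 (0.50, adjusted p = 0.13), Slc22a6 (0.10) and Pck1 (−0.09, with 763 and 227 CPM in the wt mice). Fbp1 also served to name the class.

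**Figure D5:**
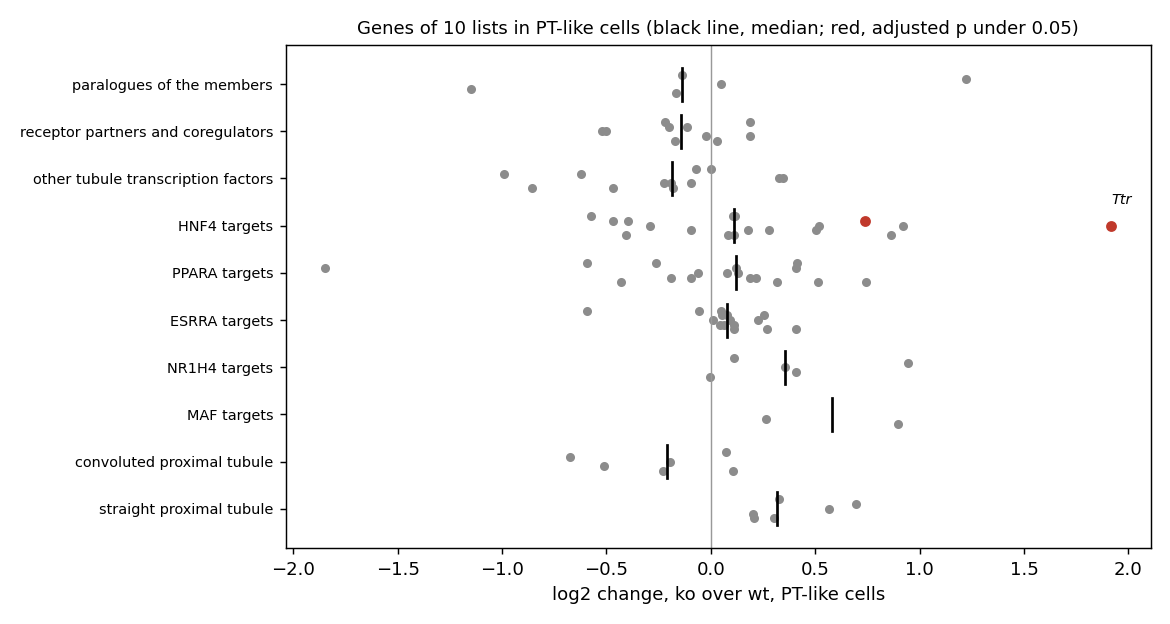
Log2 change of ko over wt in PT-like cells (horizontal axis) of the tested genes of 10 lists (rows), with a point per gene (red, called; grey, not called) and a line at the median. Ttr, at 1.92, is the called gene furthest from 0, and the medians lie between −0.21 and 0.58, beside −0.00 for all genes.

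Targets of the other factors held no call in PT-like cells. For PPARα, 17 of 20 genes were tested (median of 0.12, 5 with an unadjusted p under 0.05, where 11.4% of all genes had one), among them Acadm (medium-chain acyl-CoA dehydrogenase, 0.41, adjusted p = 0.20), Acadl (−0.06), Hadha (0.19) and Acaa1b (peroxisomal thiolase, 0.74, adjusted p = 0.093). For ERRα all 15 were tested (median of 0.08, 2 with an unadjusted p under 0.05), 13 of them above 0, with Atp5b at 0.01, Cox5b at 0.26 (adjusted p = 0.41), Slc25a4 at 0.06 and Acadm as above. In cluster 6, 12 of the 14 ERRα targets tested were below 0 (median of −0.096). For FXR, 5 of 11 were tested in PT-like cells (median of 0.36, 2 with an unadjusted p under 0.05). The bile acid transporter subunit gene Slc51a was at 31.3 and 28.9 CPM in ko and 17.1 and 14.3 CPM in wt mice, with no overlap (0.95, SE 0.19, adjusted p = 0.071), beside its partner Slc51b (0.11). For MAF, 2 of 3 were tested, with Gpx3 (a glutathione peroxidase made in this segment) at 0.26 (adjusted p = 0.42) and Cryab at 0.90 (SE 0.65).

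In PT-like cells the lists of both segments had medians of opposite sign and no call. The 6 genes of the convoluted part had a median of −0.21 (2 with an unadjusted p under 0.05), with Slc34a1 at 1000 and 890 CPM in ko and 1321 and 1383 CPM in wt mice (−0.51, SE 0.11, adjusted p = 0.083). For the straight part, 6 of 7 were tested, all above 0, with a median of 0.31 (1 with an unadjusted p under 0.05), such as Slc5a8 (lactate and short-chain fatty acid transporter, 0.32, adjusted p = 0.53). In cluster 6 both medians were below 0, at −0.47 for the convoluted and −0.80 for the straight part, with no call. There 4 of 5 straight-part genes had an unadjusted p under 0.05, where 6.35% of all genes had one.

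Among 12 other transcription factors of the tubule, none was called in PT-like cells (median of −0.19, 3 with an unadjusted p under 0.05), with Sox11 at −0.99 (SE 0.19, adjusted p = 0.058). In ErPT-like cells 3 of the 12 fell in ko and none rose, beside a median of −0.43, where 0.557% of all genes were called and 7.99% had an unadjusted p under 0.05. Markers of other cells moved with them in this class: the 7 renal vesicle markers, which include Lhx1, summed to 535 and 556 CPM in ko and 945 and 745 CPM in wt mice, and the 7 progenitor markers to 113 and 109 CPM against 207 and 170 CPM. The 7 S-shaped body markers, which include Sox9, summed to 751 and 792 CPM in ko and 938 and 848 CPM in wt mice. The 5 erythroid markers summed to 3480.1 and 3895 CPM in ko and 1133 and 756 CPM in wt mice, and none of these lists had a marker at 0. The part of these lists in the changes of ErPT-like cells was not tested. Lhx1, needed for early nephron patterning, was at 179 and 210 CPM in ko and 360 and 335 CPM in wt mice (−0.83, SE 0.12, adjusted p = 0.017). Sox11 was at 214 and 184 CPM against 413 and 336 CPM (−0.91, SE 0.14, adjusted p = 0.019), and Sox9 at 21.2 and 25.02 CPM against 71.2 and 57.6 CPM (−1.46, SE 0.22, adjusted p = 0.018). These calls were lost without mouse 1 or mouse 2, in fits that called fewer of all genes, and in 5 to 6 of 11 other settings. Sox9 turned to 0.23 to 0.54 in 3 of those 11 settings. In NPC-like cells, where 1.5% of all genes were called and 4 genes in all without mouse 1 or without mouse 2, 1 of 10 tested fell, Pax2, at 168 and 171 CPM in ko and 262 and 323 CPM in wt mice (−0.93, SE 0.16, adjusted p = 0.026).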

How the data were processed

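Single-cell RNA of 1 pool of 4 named mice was analysed, and the 6 bulk samples were not analysed here. The authors deposited raw UMI counts per gene and multiplexing tag for all 3921239 barcodes, made with Cell Ranger 6.0.0. No source used here names the genome build of these counts. Barcodes with at least 6891 UMIs (by the order-of-magnitude rule for 24000 cells) entered, unless they held under 200 genes or over 10% of UMIs from mitochondria. Tags were assigned with HTODemux (Seurat 5.3.0, positive quantile 0.99), which also removed cells with several tags. Cells were clustered after sctransform 0.4.2 on 2998 variable genes (30 principal components, resolution 0.8), and clusters were named from fixed markers. The naming thresholds (a score of at least 0.5, and 3 markers at least 1.5-fold higher in at least 10% of cells) were set after the clusters were seen.

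UMIs were summed per mouse and class and compared in edgeR 4.0.16 by its quasi-likelihood F-test (filterByExpr, TMM, Benjamini-Hochberg adjustment over all genes tested, threshold 0.05), in R 4.3.3. Differences of changes between classes were tested in 1 fit with mouse as a block. SE is the log2 change divided by the square root of F. Alternatives included DESeq2 1.42.0, no filter, other tag assignments and clusterings, Scrublet and leaving out each mouse. In counts simulated for PT-like cells, edgeR recovered 90.7% of 4-fold and 54% of 2-fold changes, and 7.91% of its calls were false. A 2-fold change could thus be missed. Counting error is the limit for genes with few UMIs.

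The 6 genes and all lists were chosen with earlier results of these data known. Named genes were the 6, the 3 most similar genes of each, and from each list the called genes and up to 4 others with the largest mean CPM in PT-like cells. Some genes that this rule takes are not reported here.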

Additional observations from a re-analysis of the deposited data

Results flagged for a closer look

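The genotype change of Maf differed between PT-like and NPC-like cells by −1.22 on the log2 scale (edgeR with mouse as a block, SE 0.20, adjusted p = 0.012), a difference between classes under the same contrast. Maf was at 490 and 585 CPM in ko and 650 and 507 CPM in wt PT-like cells, and at 122 and 95.2 CPM in ko and 57.2 and 34.5 CPM in wt NPC-like cells. In NPC-like cells the 7 progenitor markers summed to 502 and 555 CPM in ko and 1007 and 1238 CPM in wt mice. The 7 renal vesicle markers there summed to 1470 and 1241 CPM against 766 and 820 CPM. The part of these markers in the Maf difference was not tested. The Maf difference kept its sign without each mouse in turn. It was not called without mouse 1 or without mouse 2, in fits that called far fewer genes of any kind.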

How the results depend on the processing

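No paired analysis was possible because the 4 pooled mice carry no shared replicate numbers and the bulk samples, which do, were not analysed here. Calls of the 6 genes numbered 1 in ErPT-like cells and 1 in cluster 9 with no low-count filter, and 1 in NPC-like cells with DESeq2, with no filter and in cluster 7 alone. Without 1 mouse they ranged from 0 to 1 in DT-like, ErPT-like and NPC-like cells and cluster 9, from 0 to 2 in LOH-like cells, and, for differences between PT-like cells and another class, from 0 to 2 (ErPT-like), 0 to 1 (NPC-like) and 0 to 2 (LOH-like). Each of these calls without 1 mouse came from a fit that called a larger share of all genes than the fit to all 4 mice. The counts of such calls thus do not measure a change of the 6 genes alone. The Maf difference between PT-like and NPC-like cells ranged from −1.52 to −0.93 without 1 mouse. All genes called in PT-like cells numbered 79, but 184 with no filter, 51 without Scrublet-marked cells and 19 to 1892 without 1 mouse. In ErPT-like cells they numbered 62, but 343 with no filter, 26 with k-means, 37 at a minimum of 2500 UMIs and 17 to 1446 without 1 mouse. In NPC-like cells they numbered 170, but 104 with DESeq2, 483 with no filter and 40 with each tag normalised across all cells. Without 1 mouse they numbered 4 to 1120.

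Signs turned as follows. Hnf4a in PT-like cells was at −0.0200 with each tag normalised across all cells, −0.0440 at resolution 0.4 and −0.0237 to 0.14 without 1 mouse, and Maf there at −0.28 to 0.10 without 1 mouse. In ErPT-like cells Hnf4a was at −0.0206 with k-means, −0.50 by most tag UMIs, −0.14 at 2500 UMIs, −0.0688 at resolution 0.4, −0.0524 at resolution 1.2, −0.47 with 20 principal components, −0.0348 without called genes and −0.18 to 0.32 without 1 mouse. Maf was at −0.13 with k-means, −0.0591 with each tag normalised across all cells, −0.0232 at 2500 UMIs, −0.17 with 20 principal components and −0.13 to 0.38 without 1 mouse, Hnf4g at −1.28 by most tag UMIs and −0.85 to 0.29 without 1 mouse, and Esrra at 0.35 with each tag normalised across all cells. Sox9 was at 0.54 with k-means, 0.47 by most tag UMIs and 0.23 with each tag normalised across all cells. With all UMIs the ko minus wt share of PT-like cells was 0.201 percentage points for Maf and −0.331 for Nr1h4. PT-like levels moved at resolution 0.4 to 132 CPM (Hnf4a), 451 CPM (Maf), 40.4 CPM (Esrra) and 19.3 CPM (Nr1h4), at 2500 UMIs to 14.0 CPM (Hnf4g) and 20.9 CPM (Nr1h4), and with k-means to 21.9 CPM (Nr1h4). The cause of these shifts was not tested. Normalising each tag across all cells and splitting NPC-like cells were chosen after seeing the data. Few UMIs limit Hnf4g, Ppara and Nr1h4 outside PT-like cells.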
